A study of Homo sapiens with 26 samples.

Results

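Enhancers carry monomethylated lysine 4 of histone H3 (H3K4me1) both when primed and when active, whereas acetylated lysine 27 (H3K27ac) marks the active state. A region that goes from the active back to the primed state loses its acetylation while the monomethylation stays. The regions described here had that pattern in the peak calls of HCT116, a line established from a colorectal tumour. The times compared were before and 10 h after the addition of Nutlin-3a, a small molecule that keeps HDM2 from binding and degrading p53.

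The regions were chosen by peak calls alone. All peaks of the 10 deposited H3K27ac lists were merged into 87570 regions, and 24738 of these were called in both lists of vehicle-treated parental cells (WT 0 h). Of the 24738, 1668 (6.74%) were called in neither WT 10 h list, and 1390 of the 1668 overlapped an H3K4me1 peak in both WT 10 h lists. These 1390 regions are called lost regions here. Another 32 overlapped H3K4me1 in 1 of the 2 WT 10 h lists, and 246 in neither (H3K4me1-free lost regions). For orientation, 21434 regions were called in both WT 0 h and both WT 10 h H3K27ac lists and had H3K4me1 in both WT 10 h lists (retained regions). Since the rule reads the H3K27ac calls at 0 h and 10 h, the loss itself is a definition and not a result.

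WT cells had received the vehicle DMSO (0 h) or Nutlin-3a for 1 h or 10 h, and both marks were measured at each time. A second line derived from HCT116, in which the cohesin subunit RAD21 carries a degron, gave H3K27ac lists at 0 h and 1 h (RAD21 line in what follows). The study describes its H3K27ac data of this line at both times as a RAD21 knockdown through the degron. Its methods have RAD21 degraded with the auxin analogue 5-Ph-IAA before an experiment. The peak names carry the letters KD, but the sample labels do not say that the degrader was given. Each of the 8 groups had 2 replicates, all of established lines grown in culture, with 1 peak list per replicate. The H3K27ac lists held 31640 to 49127 peaks and the H3K4me1 lists 84492 to 92943. Without read counts in the lists the sequencing depth is unknown, and a region absent from a list is one that did not pass the peak caller, not one shown to lack the mark. The WT 0 h lists were the shorter ones in this contrast, with 33976 and 32739 peaks against 49127 and 46638 at 10 h.

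The lists also differed in a technical respect. The word input stood in the peak names of 7 H3K27ac lists and of all 6 H3K4me1 lists. It was missing from those of both WT 0 h lists and the first WT 1 h replicate. Whether these 3 lists were called without an input control is not known, and it would change what their fold and q-values mean. They covered 30.7 to 31.9 Mb each, against 59.5 to 66.6 Mb in the other 3 WT H3K27ac lists. The median fold enrichment of retained regions was 6.28, 6.66 and 6.92 in them and 15.0 to 15.9 in the other 3. The form of the names and the time cannot be told apart in the contrast that chose the lost regions. The calls in the RAD21 line and in WT 1 h replicate 2, which share the name form of the WT 10 h lists, are given below beside the rest.

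Of the 8 strongest lost regions outside promoters, 7 are shown first, 2 of them with an obvious sequence repeat, each as 120 bp centred on the 0 h summit (GRCh37, plus strand, lower case, with matches on either strand to the motifs searched below in capitals). They are named by the protein-coding gene with the nearest start site, which is a label of position only. ANKRD30BL, the strongest, lay at chr2:133025621-133025740, EDNRA at chr4:148374938-148375057, JAK1 at chr1:65415226-65415345, TMEM174 at chr5:72512115-72512234, MMP17 at chr12:132345295-132345414, CCT8L2 at chr22:17047829-17047948 and PTPRN2 at chr7:157944046-157944165.
ANKRD30BL: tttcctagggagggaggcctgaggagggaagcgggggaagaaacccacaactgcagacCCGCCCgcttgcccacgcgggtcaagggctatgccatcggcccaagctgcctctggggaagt
EDNRA: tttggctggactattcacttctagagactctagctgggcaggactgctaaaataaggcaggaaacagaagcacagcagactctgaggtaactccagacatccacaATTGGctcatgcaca
JAK1: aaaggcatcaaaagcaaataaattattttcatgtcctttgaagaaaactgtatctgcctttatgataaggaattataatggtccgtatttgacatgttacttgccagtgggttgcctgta
TMEM174: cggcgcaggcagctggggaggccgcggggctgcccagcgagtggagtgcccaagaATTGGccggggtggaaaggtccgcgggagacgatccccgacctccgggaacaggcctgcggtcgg
MMP17: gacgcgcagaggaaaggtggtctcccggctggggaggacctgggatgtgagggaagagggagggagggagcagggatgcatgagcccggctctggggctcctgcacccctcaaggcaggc
CCT8L2: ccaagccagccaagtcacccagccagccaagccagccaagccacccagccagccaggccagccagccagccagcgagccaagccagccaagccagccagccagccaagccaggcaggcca
PTPRN2: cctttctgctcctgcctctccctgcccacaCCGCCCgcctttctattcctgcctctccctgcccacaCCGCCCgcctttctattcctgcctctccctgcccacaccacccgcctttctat

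The last 2 sequences consist of short units in tandem. Over the 300 bp around the summit, 76.6% of the bases at CCT8L2 were the same as the base 26 bp further on, and 74.5% at PTPRN2 with a period of 37 bp. Such repeats were rare among the lost regions. An identity of at least 60% at any shift from 4 to 60 bp was found in 7 of 1390 (0.504%), against 45 of the 246 H3K4me1-free lost regions (18.3%) and 0.691% of all regions called in both WT 0 h lists. What the repeats did to the calls was not tested.

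The lost regions were weak peaks at 0 h. Strength is given as the −log10 q-value the peak caller assigned (higher is stronger) and as the percentile of the peak within its own list by −log10 p-value. Because it belongs to the calls that chose the regions, it is a description. The median percentile over the 2 WT 0 h lists was 19.9 in lost regions and 66.0 in retained ones. In the weaker of the 2 lists the −log10 q-value had a median of 3.98 and ran from 1.31 to 142, against a median of 38.0 in retained regions. The median fold enrichment was 3.43 and 3.69 in replicates 1 and 2, against 6.28 and 6.66. Lost regions were also narrow, with a median width of 770.5 bp against 2333.5 bp.

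The share of 0 h regions that became lost regions fell with peak strength. Among regions with a −log10 q-value under 3 in the weaker list it was 38.2% (378 of 990), from 3 to 5 it was 25.8%, from 5 to 10 it was 9.47%, and from 10 to 20 it was 1.20%. At 20 and over, only 8 of 14117 regions (0.0567%) were lost. In all, 400 lost regions reached 5 in both lists and 51 reached 10.

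The edge of the rule lay at the threshold of the peak caller. The lost regions with the lowest −log10 q-value in their weaker list were near FOXC1 (4.11 and 1.31 in WT 0 h replicates 1 and 2), SH3RF2 (1.31 and 6.40) and NAV2 (5.50 and 1.33). Just outside the rule were regions with a single marginal call at 10 h, near FAM184A (1.31 in replicate 2), TMTC2 (1.31 in replicate 2) and PRMT5 (1.32 in replicate 1). FAM184A and TMTC2 had 0 h values of 16.9 and 13.7, and of 11.2 and 12.1, so a region just outside could be stronger at 0 h than most lost regions.

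**Figure D1:**
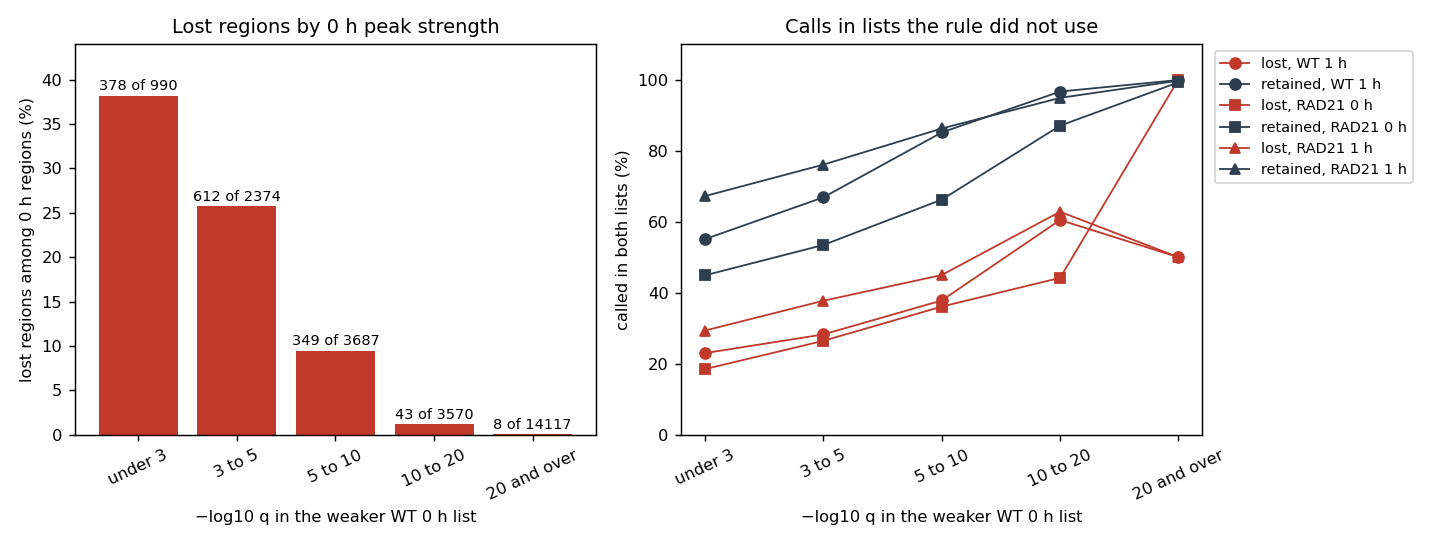
Left, the share of regions called in both WT 0 h lists that were lost regions (y axis, %), in bins of the −log10 q-value in the weaker WT 0 h list (x axis), with the numbers of regions above the bars. Right, the share called in both lists of WT 1 h (circles), RAD21 line 0 h (squares) and RAD21 line 1 h (triangles), for lost regions in red and retained regions in dark blue. In each bin below 20 the red symbols lie under the dark blue ones, and the last bin holds 8 lost regions.

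The calls at 1 h did not enter the rule, but the 1 h peaks were in the merge that set the region bounds. Lists said not to be used by the rule are meant in this sense. At 1 h, 743 of the 1390 lost regions (53.5%) were called in WT replicate 1 and 568 (40.9%) in replicate 2. Both lists called 422 regions, or 30.4% (95% Wilson interval 28.0 to 32.8%, counting error only), 1 list called 467, and neither list called 501 (36.0%). Among retained regions 95.1% were called in both. Replicate 1 called 321 lost regions that replicate 2 did not, and replicate 2 called 146 that replicate 1 did not. Replicate 1 shared its name form with the 0 h lists and replicate 2 with the 10 h lists, and the part of this difference in the results was not tested.

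Part of the gap from the retained regions went with peak strength. In regions with a 0 h −log10 q-value under 3, 23.0% of lost and 55.1% of retained regions were called in both WT 1 h lists. From 5 to 10 the shares were 37.8% and 85.1%, and from 10 to 20 they were 60.5% and 96.6%. Regions are not replicates, so these shares are given without a test.

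The calls of the RAD21 line did not enter the rule, though its 4 lists were in the merge. Each of the 4 called a minority of the lost regions. The 2 lists at 0 h called 536 (38.6%) and 552 (39.7%), and both called 385, or 27.7% (Wilson interval 25.4 to 30.1%). At 1 h of Nutlin-3a the lists called 663 (47.7%) and 655 (47.1%), and both called 530, or 38.1% (35.6 to 40.7%). Retained regions were called in both lists in 90.0% of cases at 0 h and in 95.5% at 1 h. The 1 h lists of this line had a higher fold scale. The median fold enrichment of retained regions was 16.6 and 14.2 at 0 h and 25.1 and 30.6 at 1 h. The lists covered 49.1 and 53.2 Mb at 0 h and 62.6 and 64.1 Mb at 1 h, with 40683 and 43417 peaks against 40091 and 39092. The part of these differences in the 1 h calls was not tested. The 4 lists together called 257 lost regions and none of the 4 called 414. Both 1 h lists and neither 0 h list called 151, and the reverse pattern held for 74.

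Calls in the RAD21 line followed those in WT at 1 h. Of the 422 lost regions called in both WT 1 h lists, 41.9% were called in both RAD21 line lists at 0 h and 68.5% at 1 h. Of the 501 called in neither WT 1 h list, the shares were 15.0% and 14.4%. The more a region was seen at 1 h in WT, the more often it was seen in the other line. Calls of lost regions in both RAD21 line lists also rose with WT 0 h peak strength. At 0 h they went from 18.5% under a −log10 q-value of 3 to 44.2% from 10 to 20, and at 1 h from 29.4% to 62.8%. Whether the lines went together at like strength was not tested. In the 5 lists with input in their names that the rule did not use, 334 lost regions (24.0%) were never called and 174 (12.5%) were called in all 5, against 88.3% of retained regions in all 5. Altogether 245 lost regions had no H3K27ac call beyond the 2 WT 0 h lists.

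**Figure D2:**
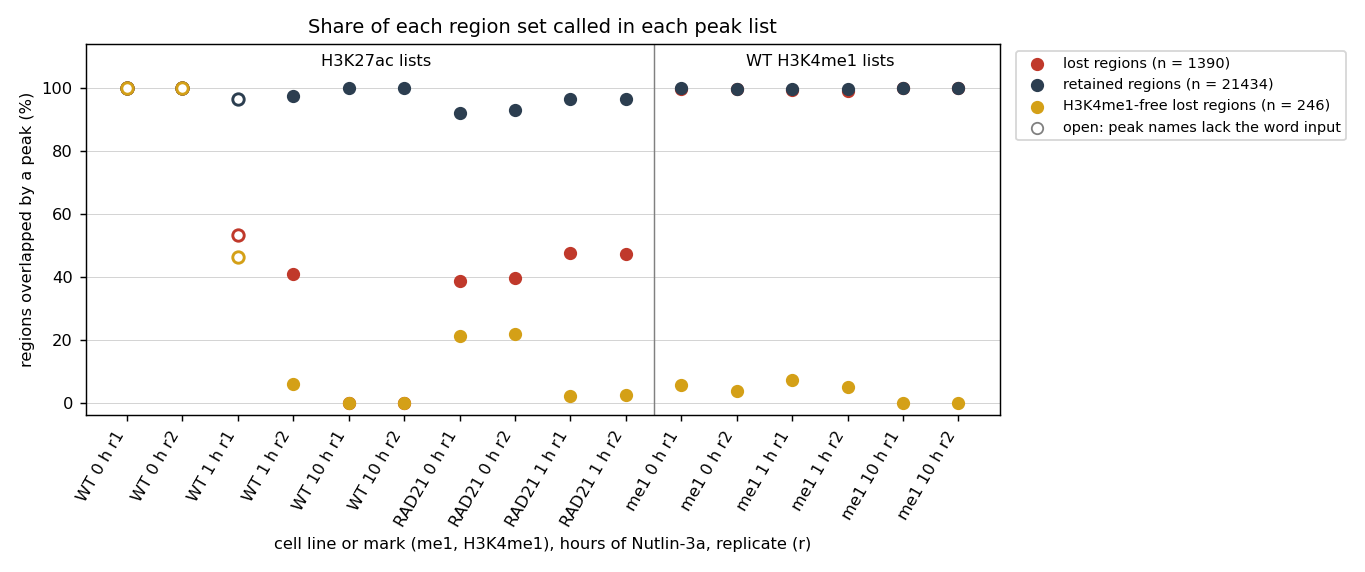
Share of regions (y axis, %) overlapped by a peak in each of the 16 lists (x axis: WT or RAD21 line H3K27ac lists, then WT H3K4me1 lists as me1, with hours of Nutlin-3a and replicate). Red, 1390 lost regions; dark blue, 21434 retained regions; yellow, 246 H3K4me1-free lost regions; open symbols are lists whose peak names lack the word input. The WT 0 h and 10 h H3K27ac lists and the 10 h H3K4me1 lists are fixed by the rule, and symbols of equal value cover each other; in the other H3K27ac lists the lost regions sit between 38.6% and 53.5%.

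The H3K4me1-free lost regions differed from the lost regions in these same lists. They were called in 46.3% of cases in WT 1 h replicate 1 but in 6.10% in replicate 2, in 21.1% and 22.0% in the RAD21 line at 0 h, and in 2.03% and 2.44% at 1 h. None of the 246 was called in all 5 lists with input in their names, and 165 (67.1%) were called in none.

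The 10 lost regions with the highest 0 h percentile covered several of these histories. The region at chr2:133025327-133025991, whose nearest coding start site (ANKRD30BL) was 106156 bp away, had a 0 h percentile of 91.9 ± 4.71 (SD, n = 2), where the next, C5, had 60.2 ± 7.23. Its −log10 q-value was 261 and 142 at 0 h, 118 in WT 1 h replicate 1, and 39.8 and 43.3 in the RAD21 line at 0 h, and it had no peak in WT 1 h replicate 2 or in the RAD21 line at 1 h. It stood far above all other lost regions, and its calls changed between lists of the same time.

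Some of the 10 were present in every list outside WT 10 h. The promoter shared by C5, which encodes a complement component, and CNTRL, which encodes a centriole protein (chr9:123836730-123837964), had −log10 q-values of 23.2 and 40.8 at 0 h, 82.7 and 49.0 at 1 h, 182 and 261 in the RAD21 line at 0 h, and 91.5 and 129 there at 1 h. The promoter of IGSF9, an immunoglobulin superfamily member (chr1:159914812-159916045), had 21.3 and 36.1, 47.9 and 51.4, 50.1 and 40.3, and 26.0 and 33.0 in the same order. Both stood higher at WT 1 h than at 0 h on this scale, which depends on the depth of each library. The intronic region near TMEM174 had 24.1 and 23.2 at 0 h, 42.6 and 49.3 at 1 h, 22.5 and 15.6 in the RAD21 line at 0 h, and 38.9 and 55.8 at 1 h. The region near MMP17, a membrane-anchored metalloproteinase, had 23.2 and 21.4, 5.57 and 4.64, 33.7 and 32.2, and 11.4 and 11.1. H3K4me1 there stayed high, at percentiles of 81.8 to 94.1 in the 6 lists. At MMP17 both 1 h H3K27ac values were thus below both 0 h values in either line.

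Others were missing from 1 or more of the 1 h lists. The intergenic region 27071 bp from the start of EDNRA, the endothelin A receptor gene, had −log10 q-values of 39.2 and 23.2 at 0 h and 6.45 and 12.0 in the RAD21 line at 0 h, with no peak in any of the 1 h lists. Its H3K4me1 percentiles, on the ranks tested below, were 72.4 and 64.9 at 0 h, 28.9 and 35.0 at 1 h, and 33.7 and 46.0 at 10 h. The region in an intron of JAK1, a cytokine receptor kinase, had 23.6 and 22.3 at 0 h, 3.73 in WT 1 h replicate 1, and 5.67 and 1.71 in the RAD21 line at 0 h, again with none in the RAD21 line at 1 h. H3K4me1 there stood at percentiles of 70.6 and 64.2, 31.0 and 33.1, and 64.9 and 50.0 at 0, 1 and 10 h. At both regions the 1 h values of H3K4me1 were below both 0 h values. Neither change passed the test described below (limma adjusted p-value 0.0706 and 0.0698). The marks did not go together at all of the 10. At C5, H3K4me1 went from 83.9 and 84.9 to 66.6 and 77.3 at 1 h, where its WT H3K27ac values were higher. At MMP17, where H3K27ac was weaker at 1 h, the H3K4me1 change was 0.08 ± 0.19 SE. The 10 were picked by their 0 h percentile, which favours lower values at other times. The repeat near CCT8L2 had H3K27ac −log10 q-values of 35.2 and 23.2 at 0 h, 7.90 in WT 1 h replicate 1 and 7.39 and 8.70 in the RAD21 line at 0 h. The repeat in PTPRN2, a receptor-type phosphatase gene, had 19.6 in both 0 h lists and 35.1 in WT 1 h replicate 1, and so was called only in the 3 lists named without input. The last of the 10, in the long non-coding gene LINC01426 with CLIC6 nearest, had 18.9 and 24.6 at 0 h, 5.08 in WT 1 h replicate 2, 19.2 and 16.6 in the RAD21 line at 0 h and 7.19 and 5.94 at 1 h.

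Outside promoters, the next regions called in both WT 1 h lists and all 4 RAD21 line lists were near ERVH48-1, MRS2 and CCDC73. ERVH48-1 (chr21:44343839-44344872) had −log10 q-values of 18.7 and 16.2 at 0 h, 20.3 and 28.0 at 1 h, and 15.4 to 43.4 in the RAD21 line. MRS2, a mitochondrial magnesium channel gene (chr6:24389143-24389833), ranged from 7.51 to 20.6 over the 8 lists. CCDC73 (chr11:32727973-32729514) ranged from 6.67 to 28.1. In all, 153 lost regions (11.0%) were called in these 8 lists and only missing at WT 10 h.

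Most lost regions lay away from promoters, taken as 1000 bp upstream to 200 bp downstream of a transcription start site. Of the 1390, 1166 (83.9%) overlapped no promoter, against 41.9% of retained regions and 47.2% of all regions called in both WT 0 h lists. Introns held 594 (42.7%), intergenic sequence 468 (33.7%) and exons 104 (7.48%). Over all regions called in both WT 0 h lists these shares were 24.0%, 14.8% and 8.45%. Because retained regions were wider and so more likely to touch a promoter, the summits at 0 h were also compared, and 87.7% of lost and 57.8% of retained summits lay outside promoters. The median distance to the nearest coding start site was 30460 bp in lost and 1827.5 bp in retained regions. More than 100 kb from one lay 284 lost regions (20.4%), against 9.22% of retained and 10.6% of all regions called in both WT 0 h lists. Among H3K4me1-free lost regions it was 28.0%. These distances were not compared at like strength. By position most lost regions could be enhancers, but 224 (16.1%) overlapped a promoter.

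Promoter lost regions were called more often elsewhere than the others. Of the 224, 50.4% were called in both WT 1 h lists, 40.6% in both RAD21 line lists at 0 h and 55.8% at 1 h. Of the 1166 outside promoters, the shares were 26.5%, 25.2% and 34.7%. Their median 0 h percentiles were 23.5 and 19.2.

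Lost regions were spread over the genome. The share of 0 h regions that were lost ran from 1.61% on chromosome 21 (4 of 249) to 8.19% on chromosome 8 (84 of 1026) among the autosomes and was 3.29% on chromosome X. The nearest WT 10 h peak was a median of 22955.5 bp away, and 27 lost regions had one within 1000 bp. Another lost region lay within 50 kb of 141 (10.1%). For 285 (20.5%) a region called in both WT 10 h lists and neither WT 0 h list lay within 50 kb. Neither share was computed for other 0 h regions, so whether it is low or high is not known.

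**Figure D3:**
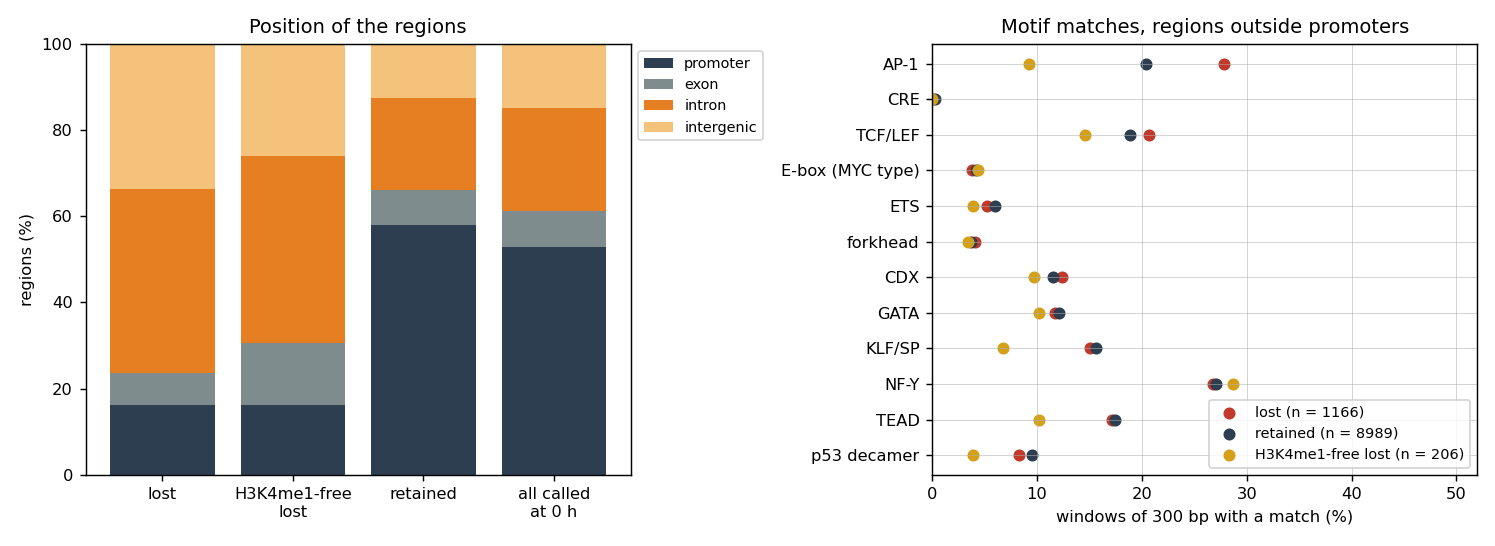
Left, position of the regions (stacked bars, % of regions in promoters, exons, introns and between genes). Right, share of 300 bp windows centred on the 0 h summit with a match to each motif (x axis, %), for lost (red), retained (dark blue) and H3K4me1-free lost regions (yellow), all outside promoters. Lost regions had the smallest promoter share, near that of the H3K4me1-free ones, in sets not matched by 0 h strength. The AP-1 motif was found in 27.8% of lost, 20.4% of retained and 9.22% of H3K4me1-free lost windows.

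Sequence around the 0 h summit was searched for motifs that the rule had not used, in 300 bp windows and on both strands. Base composition was alike outside promoters, with a median GC content of 50.0% in lost and 50.3% in retained regions. The AP-1 motif (TGANTCA), bound by FOS and JUN dimers, had the widest gap. It was present in 27.8% of the 1166 lost windows outside promoters, in 20.4% of the 8989 retained ones and in 9.22% of the 206 H3K4me1-free lost ones, with 21.1% of all 0 h regions outside promoters holding it. It also lay nearer to the summit than in retained windows, with 28.8% of 375 matches in lost windows and 20.5% of 2123 in retained windows within 50 bp of it. That was not particular to the lost regions, as 7 of 20 matches (35.0%) in H3K4me1-free lost windows lay that near. The share for matches placed at random in the window was not computed, and retained regions were wider. No gathering of AP-1 sites at the summit is thus read from these shares. The gap in the share of windows with an AP-1 match was not the same at every strength. Lost and retained windows held it in 28.3% and 24.5% of cases below a −log10 q-value of 3, in 29.4% and 21.3% from 3 to 5, in 25.9% and 21.5% from 5 to 10, and in 16.7% of 30 and 22.2% of 2288 from 10 to 20.

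AP-1 matches were as common in lost regions called in both WT 1 h lists (25.1%) as in those called in 1 (25.7%) or neither (25.3%), promoters included. Below are 3 examples, the strongest lost regions outside promoters with a match among those not yet shown, chosen after the shares were seen. Each is 60 bp centred on the motif, which is in capitals (GRCh37, plus strand). The match lay 8 bp from the summit in an intron of PDGFRB (chr5:149523020-149523079), 105 bp from it in the intergenic region near SCYGR1 (chr2:228280457-228280516), and 9 bp from it in MIR9-1HG with MEF2D nearest (chr1:156416072-156416131).
PDGFRB: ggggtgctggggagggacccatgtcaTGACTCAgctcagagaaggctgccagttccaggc
SCYGR1: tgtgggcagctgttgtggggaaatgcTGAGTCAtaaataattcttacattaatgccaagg
MEF2D: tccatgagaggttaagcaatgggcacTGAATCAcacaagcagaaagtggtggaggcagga

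The H3K27ac −log10 q-value near PDGFRB, the beta receptor of platelet-derived growth factor, was 9.84 and 14.5 at WT 0 h, 2.78 in WT 1 h replicate 2, and 4.64 and 4.17 in the RAD21 line at 0 h. Near SCYGR1 it was 9.22 and 13.1 at WT 0 h, 4.10 in WT 1 h replicate 1, and 2.85 and 5.15 in the first replicates of the RAD21 line at 0 h and 1 h. Near MEF2D it was 10.4 and 11.1 at WT 0 h, 4.90 and 7.08 at WT 1 h, and 3.97 and 6.63 in the RAD21 line at 1 h. On this scale, which depends on each library, no WT 1 h value of the 3 reached either 0 h value. By percentile MEF2D stood higher in WT 1 h replicate 2 (44.3) than in either WT 0 h list (39.1 and 39.5). The other WT 1 h percentiles of the 3 lay below both 0 h ones. The 3 were picked by their 0 h percentile, which favours lower values at other times.

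The other motifs differed less between lost and retained windows outside promoters. TCF/LEF (CTTTGNT) was found in 20.7% and 18.8%, CDX (TTTATNG) in 12.3% and 11.6%, the site of GATA factors, AGATAA, in 11.7% and 12.1%, TEAD (GGAATG) in 17.2% and 17.4%, and NF-Y (CCAAT) in 26.8% and 27.03%. KLF/SP (GGGCGG) was found in 15.0% and 15.7%, ETS (CCGGAA) in 5.23% and 5.99%, forkhead (TGTTTAC) in 4.12% and 3.74%, the E-box CACGTG in 3.77% and 4.22%, and the CRE motif in 0.0858% and 0.234%. A decamer of the p53 response element was present in 8.32% and 9.56%. A pair of decamers at most 13 bp apart, the full element, was found in 1 of the 1166 lost windows outside promoters (0.0858%), against 0.257% of all 0 h windows outside promoters. These are matches of letters in the window and say nothing of binding.

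H3K4me1 stayed at these regions by definition at 10 h, and was there throughout. Of the 1390, 1384 and 1386 were called in the 2 lists at 0 h, 1382 and 1379 at 1 h, and 1372 (98.7%) in all 6 lists. Retained regions were called in 99.8% to 99.9% of cases in each 0 h and 1 h list. This presence was thus not particular to the lost regions. The H3K4me1 peaks, merged over the 6 lists, had a median width of 2514.5 bp around lost and 5112 bp around retained regions. Nearly all lost regions, 1376 (99.0%), were the only one in their H3K4me1 region, and 74 (5.32%) shared it with a retained H3K27ac region.

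Whether the rank of H3K4me1 changed was tested with limma on normal scores of the within-list rank, over the 60476 H3K4me1 regions called in all 6 lists, with Benjamini-Hochberg adjustment over all of them. The H3K4me1 regions of 1374 lost regions entered the fit. Their median percentiles were 71.1 and 71.1 at 0 h, 69.3 and 69.8 at 1 h, and 67.8 and 68.0 at 10 h, against 78.3 and 78.9, 77.7 and 77.8, and 79.0 and 78.8 for 21350 retained regions. Both 10 h medians of the lost regions lay below both 0 h medians. The median change at 10 h was −0.07 on the normal score scale, with 62.3% of lost regions below 0, whereas it was 0.00 in retained regions and −0.02 over all regions. The rule asked for H3K4me1 at 10 h but not at 0 h, a condition that the retained regions share.

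Few single regions passed the test. At 1 h, 4 lost regions (0.291%) were higher and 11 (0.801%) lower at an adjusted p-value under 0.05, where 0.291% and 0.304% of all regions were called higher and lower. At 10 h no lost region was higher and 1 was lower, where 0.615% and 0.0231% of all regions were called higher and lower. Without adjustment, 30 were higher and 96 lower at 10 h (p-value under 0.05), and 87 and 184 at 1 h. The 1 h count depended on the settings: it was 0 when fold enrichment was ranked or when the variance trend was left out, and 0 to 8 when 1 list was left out.

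**Figure D4:**
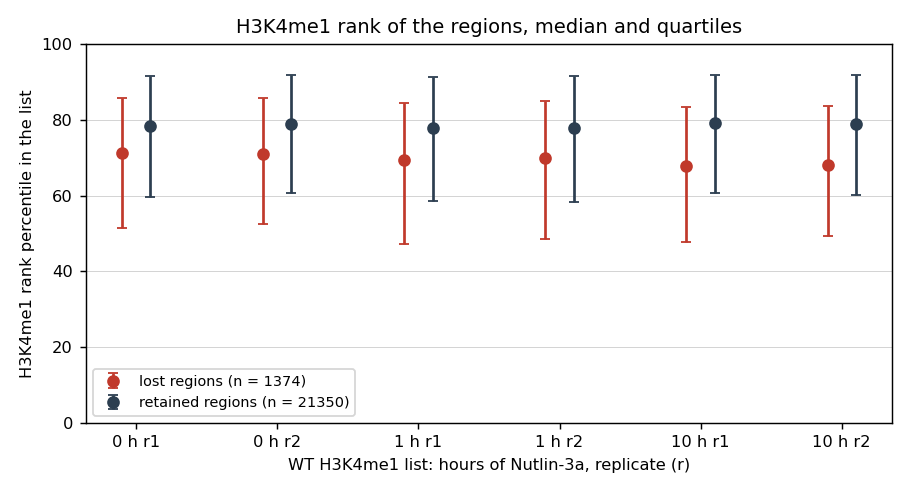
Rank percentile of H3K4me1 (y axis) in each WT H3K4me1 list (x axis, hours of Nutlin-3a and replicate), as median (point) and quartiles (bars) over regions, for 1374 lost (red) and 21350 retained (dark blue) regions in the fit. The lost regions go from 71.1 at 0 h to 67.8 and 68.0 at 10 h, while the retained ones lie between 77.7 and 79.0 throughout, and the quartiles of both sets overlap in every list.

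Among the regions with the smallest p-values at 1 h, H3K4me1 was lower at PIBF1, a centrosome protein gene, with percentiles of 48.8 and 47.0 at 0 h, 3.12 and 2.76 at 1 h, and 53.5 and 44.1 at 10 h (limma change at 1 h −1.84 ± 0.28 SE, adjusted p-value 0.0104). Near RAB11FIP2, which acts in endosome recycling, it went from 83.6 and 79.7 to 27.8 and 42.0 (−1.30 ± 0.20, limma adjusted p-value 0.0122). Near PPP1R9A, which encodes the actin-binding protein neurabin, it went from 73.5 and 74.9 to 16.8 and 33.8 (−1.34 ± 0.22, limma adjusted p-value 0.0178). At all 3 the groups did not overlap, and the 10 h values were above the 1 h ones.

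H3K4me1 was higher at 1 h in EXT1, a heparan sulphate polymerase gene, from 56.8 and 33.5 to 89.6 and 88.7 (limma change 1.36 ± 0.22 SE, adjusted p-value 0.0127), and near SUSD1, from 12.0 and 10.8 to 49.3 and 60.6 (1.33 ± 0.27, limma adjusted p-value 0.0386). The third was the PTPRN2 repeat, which moved within the top of the lists, from 99.96 and 98.7 to 100.0 in both (limma adjusted p-value 0.0175). At EXT1 the H3K27ac −log10 q-value was 2.97 and 2.77 at 0 h, 14.0 and 6.19 at 1 h, and 22.1 and 30.3 in the RAD21 line at 1 h, with no peak there at 0 h. It was thus absent at 10 h after 1 h values above those at 0 h.

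At 10 h the region called lower was an H3K4me1 domain of 16913 bp over IL6R, the interleukin 6 receptor gene, with percentiles of 99.2 and 97.6 at 0 h, 93.1 and 92.1 at 1 h, and 90.0 and 90.0 at 10 h (limma change −0.91 ± 0.17 SE, adjusted p-value 0.0162). CUBN, which encodes the endocytic receptor cubilin, went from 91.2 and 90.2 to 71.1 and 75.9 (limma adjusted p-value 0.0937), and the region near NEUROG1 from 75.8 and 75.7 to 52.9 and 35.3 (limma adjusted p-value 0.0957). The smallest p-values for a higher rank belonged to regions near PDGFRA, a growth factor receptor gene, from 47.4 and 54.2 to 78.5 and 84.4 (limma adjusted p-value 0.0571), CHRAC1, from 63.5 and 71.9 to 85.8 and 91.6 (limma adjusted p-value 0.121), and HIVEP3, from 56.4 and 59.4 to 89.5 and 76.5 (limma adjusted p-value 0.124). In these 5 the groups did not overlap but the test was not passed.

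In the RAD21 line the change in H3K27ac rank from 0 h to 1 h was tested in the same way over the 22451 regions called in all 4 lists. Only 257 of the 1390 lost regions met that condition, so the counts describe those and not the set. Of the 257, 11 (4.28%) were higher and 45 (17.5%) lower, where 18.9% and 16.7% of all regions were called higher and lower. The share called lower was near that of all regions, and the share called higher was below it. The median SE was 0.257 in lost regions and 0.113 over all regions, so the shares do not compare regions of like precision. The median change was −0.12 in lost regions, 0.05 in retained ones and 0.03 over all. When regions called in any of the 4 lists entered, with absent calls given the lowest rank, 976 lost regions were fitted, 91 were higher and 83 lower, and the median turned to 0.06. The direction thus rested on which regions were admitted. Without RAD21 line 1 h replicate 1 the counts were 0 higher and 30 lower, and without replicate 2 they were 1 and 32. Without 0 h replicate 1 they were 29 and 53, and without 0 h replicate 2 they were 22 and 51.

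The lower calls with the smallest p-values were near CYTH4, at C5 and at the promoter shared by ZNF214 and NLRP14. Near CYTH4, which encodes a cytohesin (chr22:37662998-37664294), the −log10 q-value was 126 and 149 in the RAD21 line at 0 h and 34.7 and 35.3 at 1 h (limma change −1.27 ± 0.10 SE, adjusted p-value 3.30e-06). In WT it had been only 5.01 and 4.30 at 0 h and 17.04 and 12.3 at 1 h. C5 fell by 1.08 ± 0.09 (limma adjusted p-value 4.55e-06), on the values given above. The ZNF214 promoter (chr11:7040797-7042174) had 94.4 and 130 at 0 h and 25.6 and 30.7 at 1 h in the RAD21 line (−1.23 ± 0.10, limma adjusted p-value 5.02e-06) but 4.87 and 8.61, and 17.2 and 5.05, in WT. CYTH4 and ZNF214 thus had far higher values in the RAD21 line at 0 h than in WT cells at 0 h, a difference between lists of different name form that was not tested.

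The higher calls with the smallest p-values were an intron of SH3RF2 and the promoters of MYB and GPAT2, again in the RAD21 line. SH3RF2, a ubiquitin ligase gene, rose there from −log10 q-values of 6.25 and 3.53 at 0 h to 28.0 and 33.9 at 1 h (limma change 0.96 ± 0.26 SE, adjusted p-value 0.0138). The promoter of MYB, a transcription factor of intestinal and blood progenitors (chr6:135501858-135503072), had 7.30 and 7.81 at 0 h and 33.0 and 46.2 at 1 h (0.55 ± 0.16, limma adjusted p-value 0.0182), beside 11.1 and 14.1 at 0 h and 24.6 and 10.1 at 1 h in WT. The promoter of GPAT2, an acyltransferase gene, had 10.4 and 10.2 at 0 h and 42.0 and 68.4 at 1 h (0.45 ± 0.14, limma adjusted p-value 0.0255). In WT it had 11.1 and 12.6 at 0 h and 21.0 and 23.6 at 1 h. At all 3, both RAD21 line values at 1 h were above both at 0 h.

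The lost regions were scattered over many genes. Their nearest coding start sites belonged to 1261 genes, of which 1145 had a single lost region and 2 had 4. These 2 were TRIB1, a pseudokinase gene, with 4 regions between 76453 and 359051 bp away, and ZFP36L1, which encodes an RNA-decay factor, with 4 between 28357 and 380091 bp away. Of the TRIB1 regions only the one at 79631 bp was called in all other H3K27ac lists, with −log10 q-values of 8.54 and 7.74 at 0 h, 12.5 and 20.0 at 1 h, and 6.30 to 32.3 in the RAD21 line. Of the ZFP36L1 regions, 2 lay in introns of RAD51B, and the one at 66922 bp had no call beyond the 0 h lists (3.12 and 4.25). Of the genes with 3 regions, the first by name was CACNG5. Its 3 regions lay in introns of PRKCA, which encodes protein kinase C alpha, at 143082 to 182095 bp from CACNG5, which shows how little the nearest start site says of the target.

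The promoters of the nearest genes were called about as often as those of all coding genes. Of the 843 coding genes nearest to, and within 100 kb of, a lost region outside promoters, 519 (61.6%) had a promoter peak in both WT 0 h lists. Of the 519, 500 (96.3%) had one in both WT 10 h lists and 6 (1.16%) in neither. Over all 20149 coding genes the shares were 60.1%, 97.9% and 1.04%. These shares were near those of all coding genes and so say nothing particular about the lost regions.

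A coding gene was nearest to a lost region within 100 kb in 1032 of 20149 cases (5.12%). Only 12783 of the 20149 were nearest to any region called in both WT 0 h lists within 100 kb, and only these could be counted. Each gene list below held a larger share of these genes, so 5.12% is a low background for the lists. No lost region was nearest within 100 kb to any of the 40 canonical p53 targets. The same held for the 26 Wnt target and intestinal stem cell genes and the 26 AP-1 and immediate early genes. Of these 3 lists, 33, 20 and 25 genes were nearest to some region called in both WT 0 h lists. The highest shares were 5 of 25 (20.0%) for adhesion, laminin and hemidesmosome genes and 4 of 24 (16.7%) for intestinal epithelial transcription factors. EGFR and MAPK feedback genes had 3 of 26 (11.5%), cholesterol synthesis and SREBP genes 2 of 22 (9.09%), MYC programme genes and interferon response genes 2 of 26 (7.69%) each, G2/M and kinetochore genes 2 of 40 (5.00%), integrated stress response genes 1 of 22 (4.55%) and G1/S and DNA replication genes 1 of 40 (2.50%). In the same order, the genes that could be counted were 24 of 25, 20 of 24, 25 of 26 and 21 of 22. For the MYC programme and interferon response they were 23 and 21 of 26. For the last 3 lists they were 37 of 40, 21 of 22 and 34 of 40. With so few genes in each list these are counts without a test, and the lists were chosen with earlier results of these data known.

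Among the adhesion genes, the region 5034 bp from the start of CDH1, the E-cadherin gene (chr16:68765967-68766730), was the strongest. It lay in an H3K4me1 domain of 34410 bp with percentiles of 97.8 to 98.4 in all 6 lists. Its H3K27ac −log10 q-value was 16.0 and 14.5 at WT 0 h, 5.34 in WT 1 h replicate 2, 5.55 in RAD21 line 0 h replicate 2, and 7.70 and 9.50 in the RAD21 line at 1 h. A second lost region lay 17058 bp from the start of the neighbouring CDH3, the P-cadherin gene, with 3.88 and 5.51 at 0 h and 4.85 in RAD21 line 0 h replicate 2 as its only other call. DST, which encodes a linker of hemidesmosomes to keratin, had an intronic region with 5.13 and 3.18 at 0 h and weak calls of 4.00 to 9.29 in all 6 lists not used by the rule. ITGB1, the integrin beta-1 gene, and PKP2, a desmosomal plakophilin gene, were the other members.

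Among the intestinal factors, the regions near ISX and PPARG had 0 h percentiles of 24.0 ± 2.08 and 23.0 ± 7.36 (SD, n = 2), and GRHL2 was another such gene. The ISX region was called in all 6 lists not used by the rule, with −log10 q-values from 7.54 to 14.0. The PPARG region had 6.61 and 4.56 at WT 0 h, 6.60 in WT 1 h replicate 1, and 8.00 and 13.5 in the RAD21 line at 1 h. The regions near ISX and PPARG, genes of one list, thus differed in their calls outside the rule.

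For growth factor signalling, the stronger of 2 regions near DUSP5, which encodes a phosphatase that acts on ERK, and the region near EGFR had −log10 q-values at WT 0 h of 3.91 and 7.34, and of 3.68 and 7.07, and both were called in both WT 1 h lists (6.68 and 7.06, and 5.38 and 5.22). The region in ETV1, an ETS factor gene, had 3.68 and 5.74 and was called in WT 1 h replicate 2 (3.13). Near INSIG1, which holds back SREBP processing, the region was stronger, with 10.4 and 13.7 at WT 0 h, 10.3 and 15.9 at 1 h and 10.2 to 24.5 in the RAD21 line. A lost region that overlapped the promoter of another gene, with HMGCS1 as the nearest coding start site, had 14.5 and 7.07 at 0 h and 8.77 and 8.73 at 1 h.

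Proliferation genes were represented by single regions. The one nearest to MKI67, the gene of the Ki-67 antigen, lay 47547 bp away and had −log10 q-values of 6.61 and 9.79 at WT 0 h and 4.17 and 3.79 at 1 h. The one near KIF2C, a kinetochore motor gene, had 2.73 and 1.84 at WT 0 h but 5.48 and 9.23 at 1 h, and 8.92 and 12.2 in the RAD21 line at 1 h with none at 0 h. In an intron of DNMT1, the maintenance DNA methyltransferase gene, it was 7.28 and 3.65 at WT 0 h, 5.79 in WT 1 h replicate 2 and at least 7.03 in each RAD21 line list. The TERT promoter had 7.52 and 3.44 at WT 0 h, 21.1 and 14.5 at 1 h, and 5.97 and 14.9 in the RAD21 line at 1 h, with none there at 0 h. The region near EIF4E, the cap-binding protein gene, had 6.81 and 3.60 at WT 0 h, none at WT 1 h, and 8.39 and 12.5 in the RAD21 line at 1 h. Those near KIF2C, TERT and EIF4E were thus called in both RAD21 line lists at 1 h and in neither at 0 h. The 1 h lists of that line also had the higher fold scale, as given above.

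In the remaining lists, the region in IFI6, an interferon-induced gene, had −log10 q-values of 3.12 and 2.18 at WT 0 h with no other call. STC2, a secreted glycoprotein gene of the stress response, had 2 lost regions. The stronger had 11.4 and 6.45 at WT 0 h and was called in all 6 lists not used by the rule, from 5.27 to 24.0. The other, 24460 bp from the start site, was called in neither WT 1 h list and in all 4 RAD21 line lists.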

How the data were processed

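The data were 16 ChIP-seq peak lists (10 H3K27ac, 6 H3K4me1), with groups and replicate numbers from the sample labels. The 10 input libraries were not analysed here. Per the study's methods and the submitters' processing notes, reads were trimmed (Trim Galore 0.6.6), mapped to GRCh37 (Bowtie2 2.3.2), stripped of duplicates and of reads in blacklisted regions, and MACS2 2.2.7.1 then called peaks (narrow for H3K27ac, broad for H3K4me1). The methods state an input control, but the peak names, covered length and fold scale of both WT 0 h lists and of WT 1 h replicate 1 differ from the rest, so whether these 3 had one is not known. The fold enrichment ratio, the −log10 p-value and the −log10 q-value of each peak are the authors' deposited values. The lowest deposited −log10 q-value was 1.30 for H3K27ac and 1.01 for H3K4me1. For WT H3K27ac at 0 h and 1 h the numbers of deposited peaks are not those the study gives, for a reason not known here. Depth is unknown, so no interval for a library's signal was set, and a peak's values depend on its own library.

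H3K27ac peaks that overlapped or touched were merged, and any overlap of 1 bp or more with a peak counted as a call. Region ends lay within the GRCh37 lengths on the 25 chromosomes checked. Promoters (1000 bp upstream to 200 bp downstream) came from basic GENCODE v44lift37 transcripts, and distances run from the 0 h summit of WT replicate 1. Rank changes were fitted with limma 3.58.1 (R 4.3.3, eBayes with trend, no covariates, 1 fit per mark, over regions called in all lists). H3K4me1 was ranked by the strongest peak of each merged H3K4me1 region. The scripts were tested on simulated data. With 2 lists per group an exact two-sided permutation test cannot go below 0.333 and was not run. The titles number replicates as BR1 and BR2 and the study calls them biological replicates. What made them separate is not stated, so p-values measure the spread between lists.

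The members, gene lists and motifs were chosen with earlier results of these data known. Regions were named by rule: the 10 with the highest 0 h percentile, the 5 outside promoters called in all lists but WT 10 h, the 3 smallest p-values per direction and rank contrast, the 3 genes nearest to most regions, up to 3 listed genes per gene list (2 of these are not reported here), and 3 regions on either side of the edge of the rule. The AP-1 examples were added after the shares were seen.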

Additional observations from a re-analysis of the deposited data

How the results depend on the processing

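The number of lost regions stayed within 1.5 times of 1390 when 10 h peaks within 1000 bp were barred (1363), when H3K4me1 had to cover at least 50% of the region (1355) or when only the 6 WT lists were merged (1388), and these settings moved no share beyond its spread. When both WT 0 h −log10 q-values had to reach 5, 400 regions were left, of which 77.5% lay outside promoters, 40.5% were called in both WT 1 h lists, 38.2% in both RAD21 line lists at 0 h and 47.0% at 1 h. When both lists in question had to reach 5, the last 3 shares were 14.8%, 15.3% and 25.8%. Outside promoters lay 78.1% with a window of 2000 bp either side of a start site, 90.5% with protein-coding transcripts alone, and 87.7% by summit, an alternative chosen after seeing the data. Leaving out 1 list at a time gave 1399 to 3170 regions, with 3170 and 2862 when WT 0 h replicate 1 or 2 was dropped, and 82.5% to 87.5% outside promoters. The shares called ran from 20.1% to 53.5% for WT 1 h, 17.2% to 39.7% for the RAD21 line at 0 h and 27.6% to 47.7% at 1 h. The highest of these come from asking for 1 list in place of 2.

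Lost regions with an H3K4me1 rank change numbered 15 at 1 h and 1 at 10 h. They were 0 and 0 when fold enrichment was ranked, 0 and 0 without the trend, 8 and 3 over regions called in any list, and 0 to 8 and 0 to 1 without 1 list. For H3K27ac in the RAD21 line at 1 h the number was 56, with 30 for fold enrichment ranked, 174 over regions called in any list (more regions admitted) and 30 to 82 without 1 list. With a replicate block it was 19, 1 and 54. The numbers do not pair the samples: same-numbered lists had correlations of their deviations of 0.00739, 0.000840 and 0.00399 for H3K4me1 and −0.0343 in the RAD21 line, and peak names in some lists carry another number. Elsewhere the cause of a change was not tested.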
